A study of Oryctolagus cuniculus with 34 samples.

Results

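SCD (ENSOCUG00000001375), the gene of stearoyl-CoA desaturase, is 1 of 23669 genes in the expression table of this study and was followed in rabbit supraspinatus muscle at 1, 2, 4 and 8 weeks after rotator cuff repair. It was chosen because its level in the repaired left shoulder stood above that in the right shoulder of the same rabbits, so that difference is described here and not tested. The 17 rabbits were female New Zealand White animals about 6 months old. Each had the left supraspinatus tendon cut and left detached for 8 weeks and then reattached, while the right shoulder was the control, without tenotomy. The treatment protocol in the labels gives the sham as a cut of the skin, whereas the study's methods call the right side unoperated, so whether its skin was cut is uncertain. Rabbits 5 to 8 were taken at 1 week (n = 4), rabbits 59, 60, 61, 62 and 64 at 2 weeks (n = 5), rabbits 63, 66, 67 and 68 at 4 weeks (n = 4) and rabbits 1 to 4 at 8 weeks (n = 4), each with both shoulders. Every control therefore comes from an animal that also carried a repair, no group was tenotomised without repair, and the RNA came from the posterior-lateral part of the muscle. The repair library of rabbit 3 at 8 weeks was left out, as the study also filtered out an experimental sample of that time point, which leaves 33 of 34 libraries and 3 repairs at 8 weeks.

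Stearoyl-CoA desaturase sits in the endoplasmic reticulum and puts a double bond into saturated fatty acyl-CoA, which turns stearate into oleate and palmitate into palmitoleate. These monounsaturated fatty acids are the preferred building blocks of triglycerides, cholesterol esters and membrane phospholipids. The gene is strongly expressed in adipocytes, liver and sebaceous glands, and its transcription is driven by the sterol-regulated factors SREBP and by the liver X receptors. After rotator cuff tears, adipocytes and lipid accumulate in the supraspinatus, which is the setting in which the gene was measured here. In bulk tissue, more cells of a type and more RNA per cell cannot be told apart.

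Total counts on genes lay between 9220035 and 28395188 (median 12127768), and libraries of 1 and 8 weeks (median 19343431) were deeper than those of 2 and 4 weeks (median 10625163). These pairs of time points also carry different sample title series, so series and time cannot be told apart, repair effects of different times are tested against each other only within a series, and levels set side by side across series are descriptions. The myofibre genes MYOM2 and TNNT3 were present in every library, with a summed level of 566 to 24007.6 CPM. CPM are the counts on a gene relative to the library total after scaling by the trimmed mean of M-values (TMM). Some repair libraries stood apart in their makeup. That of rabbit 6 at 1 week had the lowest myofibre sum, 566 CPM, and that of rabbit 59 at 2 weeks the highest sum of fibroblast and fibro-adipogenic progenitor genes, 37533 CPM. In rabbit 6 the fibroblast sum (3578.9 CPM) and the adipocyte sum of ADIPOQ and LIPE (915 CPM) were above the myofibre sum. The fibroblast sum was also above it in rabbit 7 at 1 week (13174 against 4797 CPM). At 2 weeks this held for rabbits 59 (37533 against 3232 CPM) and 62 (10602 against 4818 CPM). The 4-week repair of rabbit 68 had the highest myofibre sum of its group, 16809 CPM, and the lowest fibroblast sum, 636 CPM.

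At 1 week post-repair, SCD was higher in the repaired shoulder of 4 of 4 rabbits. Its level was 206 CPM in the repair and 19.1 CPM in the control of rabbit 5, 737 against 48.4 CPM in rabbit 6, 143 against 23.7 CPM in rabbit 7 and 304 against 38.4 CPM in rabbit 8. All 4 repair libraries lay above all 4 control libraries, as they did for 16.1% of all genes tested at this time. The ratio of left to right ran from 6.05 to 15.2 with a median of 9.35, and the fitted log2 fold change (log2FC) was 3.22 (SE 0.67). Rabbit 6 held the highest level of any library, and without its repair library the log2FC was 2.79.

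At 2 weeks, SCD was higher in the repair of 5 of 5 rabbits. The repair and control levels were 96.2 and 3.97 CPM in rabbit 59, 93.8 and 11.4 CPM in rabbit 60, and 38.6 and 3.93 CPM in rabbit 61. They were 149 and 8.70 CPM in rabbit 62, and 32.5 and 3.78 CPM in rabbit 64. The groups did not overlap, which held for 4.10% of genes at 2 weeks. Ratios lay between 8.22 and 24.2 (median 9.81), and the log2FC was 3.60 (SE 0.71).

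At 4 weeks, the repair libraries split by rabbit. Rabbits 63, 66 and 67 had 268, 484 and 390 CPM in the repair against 7.16, 21.7 and 28.9 CPM in the control. Rabbit 68 had 29.4 CPM in the repair against 9.63 CPM in the control, so its repaired shoulder was just above the highest control of the group. The groups did not overlap (5.19% of genes), by that narrow margin. Ratios ran from 3.06 in rabbit 68 to 37.5 in rabbit 63 with a median of 17.9. The log2FC was 3.73 (SE 0.67), and it was 4.66 with the repair library of rabbit 68 left out.

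At 8 weeks, SCD in the repair was above the control in 3 of 3 rabbits, with smaller ratios than in the rabbits of 1 week, which belong to the same series. Rabbit 1 had 78.2 CPM in the repair and 53.3 CPM in the control, rabbit 2 had 174 and 31.8 CPM, and rabbit 4 had 161 and 67.7 CPM. The control of rabbit 3 held 50.5 CPM. No repair library overlapped the controls, as for 4.24% of genes, and ratios were 1.47 to 5.46 (median 2.38). The log2FC was 1.39 (SE 0.66). Among the 12937 genes tested, the log2FC of SCD ordered from the most positive, took ranks 94, 56, 31 and 264 as the weeks went from 1 to 8. The difference between times in the repair effect of SCD was not tested, because the gene was chosen on that effect.

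**Figure D1:**
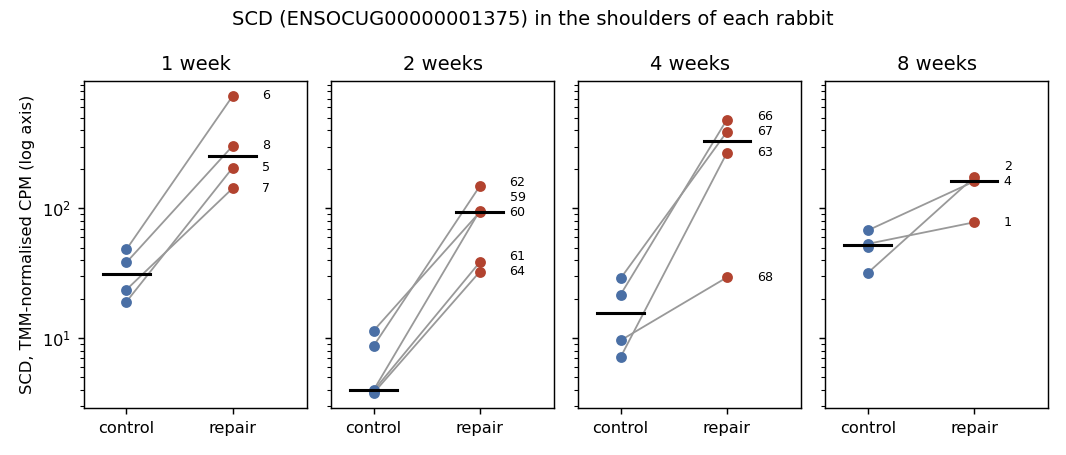
SCD level in CPM after TMM scaling (log axis) in the control and repaired shoulder at each time post-repair. Lines join the shoulders of a rabbit, numbers name the rabbits in the order of their repair levels, black bars are group medians, and the control of rabbit 3 at 8 weeks has no partner. Every repaired shoulder lies above its own control, and rabbit 68 at 4 weeks sits at 29.4 CPM while the other repairs of that time reach 268 to 484 CPM.

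Ordered by group median, without regard to series, SCD ran from 329 CPM in the 4-week repair to 3.97 CPM in the 2-week control. The means were 293 ± 196 CPM (SD, n = 4) in the 4-week repair, 347 ± 268 CPM (SD, n = 4) in the 1-week repair, 138 ± 52 CPM (SD, n = 3) in the 8-week repair and 82.0 ± 47.7 CPM (SD, n = 5) in the 2-week repair. The controls followed with 50.8 ± 14.7 CPM (SD, n = 4) at 8 weeks, 32.4 ± 13.5 CPM (SD, n = 4) at 1 week, 16.9 ± 10.3 CPM (SD, n = 4) at 4 weeks and 6.36 ± 3.51 CPM (SD, n = 5) at 2 weeks. Each group overlapped its neighbour in this order, so no neighbouring pair was set apart by its spread. The counts behind these levels ran from 34.7 expected counts in the control of rabbit 64 to 20234 in the repair of rabbit 6.

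SCD varied more between rabbits of the same group than most genes did. The SD of its log2 CPM within groups was 0.99, against a median of 0.31 over the 9646 genes whose mean log2 CPM reached 1, of which 97.0% had a smaller SD. In the controls alone the SD was 0.71, above 96.1% of genes, and in the repairs alone it was 1.22, above 97.2%. The 4-week repair had the widest spread of the 8 groups, with an SD of 1.86 on the log2 scale.

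The control shoulders were also set side by side. Their SCD levels entered the choice of the gene as the right side of each rabbit, so no test is given. Controls of the series of 1 and 8 weeks had a fitted level above that of the other series by a log2FC of 2.08 (SE 0.49), or 4.23-fold. The lowest control of 1 and 8 weeks, 19.1 CPM, lay below the 2 highest controls of 2 and 4 weeks, 21.7 and 28.9 CPM. Within a series, the fitted log2FC was -0.69 (SE 0.58) for the control of 1 week against that of 8 weeks and -1.34 (SE 0.78) for the control of 2 weeks against that of 4 weeks, and the control groups overlapped in both comparisons. The part of series, depth and time in the control levels cannot be told apart.

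A second gene of the annotation, ENSOCUG00000014801, carries the human ortholog symbol SCD as well. Symbols were at hand for 3310 of the 23669 identifiers, and SCD5 was not among these. It was not used in choosing SCD, but reads from near-identical copies could be split between the 2 identifiers, so its level is uncertain. At 1 week, it rose with a log2FC of 1.76 (SE 0.36, adjusted p = 0.00379). Its repair and control levels were 14.8 and 6.88 CPM in rabbit 5, 41.9 and 9.83 CPM in rabbit 6, 33.3 and 6.18 CPM in rabbit 7, and 14.9 and 5.53 CPM in rabbit 8. The groups did not overlap (16.1% of all genes), and the call remained without any single library of that time (highest adjusted p 0.0224).

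At 2 weeks, the second gene also rose, by a log2FC of 1.64 (SE 0.54, adjusted p = 0.0404), in 4 of 5 rabbits. The repair levels were 14.6, 11.7 and 10.4 CPM in rabbits 59, 62 and 64, against 1.53, 1.98 and 3.91 CPM in their controls. Rabbit 61 had 3.66 against 2.45 CPM, and rabbit 60 had 2.5 against 2.67 CPM, so here the groups overlapped. The call was lost when the repair library of rabbit 59 or 62, or any of the 5 control libraries, was left out (highest adjusted p 0.139). It was also lost with all 34 libraries (adjusted p = 0.109), with quality weights (0.151) and with the libraries of 2 weeks alone (0.191).

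At 4 weeks, the repair levels of the second gene were 8.84, 7.90, 6.79 and 5.54 CPM in rabbits 63, 66, 67 and 68, and the controls 3.53, 0.846, 1.96 and 2.86 CPM. The groups did not overlap (5.19% of all genes), while the log2FC of 1.78 (SE 0.65) had an adjusted p of 0.187 and passed with edgeR (0.0444) and DESeq2 (0.00952). Rabbit 68, whose SCD was far below that of the other repairs, was close to them in this gene. At 8 weeks the repairs of rabbits 1, 2 and 4 held 10.8, 18.3 and 10.4 CPM against controls of 9.07, 7.06 and 8.56 CPM and 7.74 CPM in rabbit 3, with a log2FC of 0.65 (SE 0.39, adjusted p = 0.999). In the controls, the second gene was higher at 1 and 8 weeks than at 2 and 4 weeks by 1.74 on the log2 scale (SE 0.41, adjusted p = 0.00460).

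**Figure D2:**
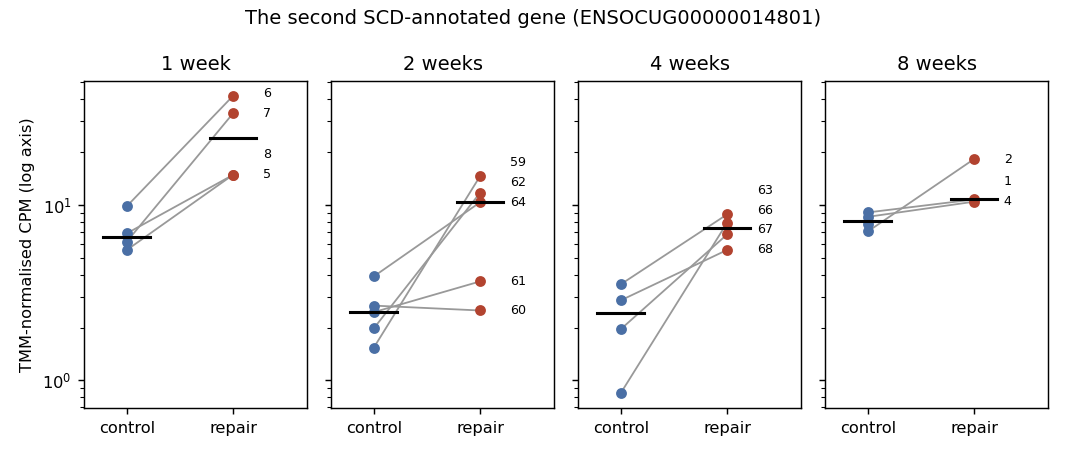
Level of the second SCD-annotated gene in CPM after TMM scaling (log axis), drawn like the plot of SCD by rabbit, with lines joining the shoulders of a rabbit and black bars at the group medians. Rabbit 60 at 2 weeks, with 2.5 CPM in the repair and 2.67 CPM in the control, is the pair without a higher repair.

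For every 100 counts on SCD, the second gene had 1.63 to 31.8 counts in the repairs and 3.90 to 103 in the controls. The median was 6.45 in the 1-week repair against 23.2 in its control, 9.50 against 38.6 at 2 weeks, 2.52 against 18.2 at 4 weeks and 10.5 against 16.2 at 8 weeks. The control of rabbit 64 had about as many counts on the second gene (35.9) as on SCD (34.7). Across the 33 libraries the log2 CPM of the 2 genes correlated at r = 0.73, and at 0.12 once each group's mean was taken away, as a description over libraries that share groups and rabbits.

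The genes around SCD in lipid metabolism were taken from a list of 109 symbols in 7 roles. With the symbols at hand, 27 were matched to an identifier, and all 27 were tested. At 1 week, 3 of 27 rose and 0 fell (11.1%, against 13.7% of all genes tested, of which 6.81% rose and 6.88% fell). At 2 weeks, 3 rose and 1 fell (14.8%, against 15.9% of all genes, with 7.95% up and 7.92% down). At 4 weeks, 1 rose and 0 fell, where 0.124% of all genes were called, 0.0773% up and 0.0464% down. At 8 weeks 0 passed, also at an unadjusted p of 0.05 and with edgeR or DESeq2, where 0.00773% of all genes were called. The share of called genes in the list was near that of all genes at 1 and 2 weeks. With the shoulders of a rabbit treated as a block in the fit, 9, 13, 4 and 0 of the list passed (33.3%, 48.1%, 14.8% and 0%), where 26.3%, 31.6%, 2.81% and 0.00773% of all genes passed in the same fit, and adjusted p values of that fit are given with a gene where they change its call. When a library was left out, the count of the list and that of all genes both moved. At 1 week the list had 0 calls without the repair of rabbit 6 or the control of rabbit 7, where all genes had 877 and 593 in place of 1771, and 1 without the control of rabbit 5 or 8 (all genes 625 and 939). At 2 weeks it had 0 without the repair of rabbit 59, 2 without that of rabbit 62, 7 without that of rabbit 60 or 61 and 11 without that of rabbit 64, where all genes had 328, 763, 3331, 2755 and 3456 in place of 2053. At 4 weeks it had 0 without the repair of rabbit 63, 66 or 67 or the control of rabbit 66 (all genes 3, 5, 2 and 6 in place of 16), and 5 without the repair of rabbit 68 (all genes 281). The median log2FC of the list was 0.32, 0.44, 0.44 and 0.15 at 1, 2, 4 and 8 weeks, beside 0.05, 0.06, 0.05 and 0.01 over all genes. A positive log2FC was found in 19, 20, 24 and 17 of 27 members, beside 6942, 6989, 6995 and 6760 of all 12937 genes. SCD had a larger log2FC than each of the 27 at 1 and 2 weeks, a description since it was chosen for that. THRSP was about level with SCD at 4 weeks (3.71 against 3.73) and at 8 weeks.

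Among the genes that make the saturated chains SCD acts on, THRSP, a regulator of lipogenesis in fat and liver, rose at 1 week with a log2FC of 2.45 (SE 0.77, adjusted p = 0.0361). Its repair levels were 3.14, 23.8, 4.20 and 10.3 CPM in rabbits 5 to 8, against 1.14, 2.16, 1.42 and 0.928 CPM in the controls, without overlap (16.1% of all genes). That call was lost without the repair of rabbit 6 or 8 or the control of rabbit 5, 6, 7 or 8 (highest adjusted p 0.109). It was also lost with all 34 libraries and with the libraries of 1 week alone (highest adjusted p 0.0728). THRSP had a log2FC of 3.17, 3.71 and 1.39 at 2, 4 and 8 weeks (adjusted p = 0.0897, 0.159 and 0.999), and passed at 2 and 4 weeks with the rabbit block (adjusted p = 0.00840 and 0.00761). ACLY, which makes cytosolic acetyl-CoA, was at 0.84 and 0.86 at 1 and 2 weeks (adjusted p = 0.0730 and 0.0587), positive in all 4 and all 5 rabbits, and passed with the block (adjusted p = 0.0135 and 0.00777). ACACA, the acetyl-CoA carboxylase of the committed step, had a log2FC of 0.19 to 0.39 over the 4 times, and ACSS2, which activates acetate, of -0.01 to 0.44, and neither passed.

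Of the other desaturation and elongation genes, HACD3, a dehydratase of very long chain synthesis, rose at 2 weeks by a log2FC of 0.80 (SE 0.20, adjusted p = 0.0144), in 5 of 5 rabbits. Without the repair of rabbit 59 its adjusted p was 0.0528. HACD3 was also not called with all 34 libraries or with the libraries of 2 weeks alone (highest adjusted p 0.161). Its relative HACD2 was at 0.68 at 2 weeks (adjusted p = 0.0528, with the block 0.0167) and 0.85 at 4 weeks (adjusted p = 0.143). ELOVL5, an elongase of polyunsaturated chains, was at 0.57, 0.56, 0.67 and 0.07 over the times, with an adjusted p of 0.107 and 0.164 at 1 and 2 weeks and of 0.0433 and 0.0360 with the block. FADS2, the delta-6 desaturase, was between -0.10 and 0.24, and CYB5B, a cytochrome b5 of the mitochondrial outer membrane, between -0.04 and 0.37. FADS2 and CYB5B passed in neither fit.

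Among the regulators, NR1H3, the liver X receptor alpha, rose at 1 week with a log2FC of 1.27 (SE 0.33, adjusted p = 0.0143). The repairs of rabbits 5 to 8 had 7.74, 17.9, 8.76 and 9.34 CPM and their controls 4.56, 5.66, 3.40 and 4.21 CPM, so no libraries overlapped (16.1% of all genes). Without the repair of rabbit 6 or the control of rabbit 7 the call was lost (highest adjusted p 0.0726). All 34 libraries together also lost it (adjusted p = 0.168). At 2 and 4 weeks NR1H3 had a log2FC of 0.87 and 1.18 (adjusted p = 0.0987 and 0.171, with the block 0.0122 and 0.0234). MBTPS1, the site-1 protease that releases SREBP, rose at 2 weeks by 0.58 (SE 0.15, adjusted p = 0.0168, 5 of 5 rabbits), with an adjusted p of 0.0608 without the repair of rabbit 59. Its call was also lost with all 34 libraries and with the libraries of 2 weeks alone (highest adjusted p 0.182). SREBF2, the SREBP of cholesterol synthesis, was lower in the repair in 4 of 4 rabbits at 1 week and 4 of 4 at 4 weeks, by a log2FC of -0.34 and -0.50 (adjusted p = 0.106 and 0.110). SCAP, the escort protein of SREBP, stayed between -0.05 and 0.04.

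In fatty acid uptake, CD36, a fatty acid translocase, rose at 4 weeks by a log2FC of 1.41 (SE 0.26, adjusted p = 0.0135). The repairs held 330, 335, 380 and 249 CPM in rabbits 63, 66, 67 and 68 and the controls 137, 73.0, 144 and 145 CPM, well apart in every rabbit including rabbit 68. The call was lost without the repair of rabbit 63, 66 or 67 or the control of rabbit 66 (highest adjusted p 0.0913). It was also lost with all 34 libraries and with the libraries of 4 weeks alone (highest adjusted p 0.165). At 1 week CD36 was at 0.78 (adjusted p = 0.0515, with the block 0.0352). SLC27A4, a fatty acid transport protein, had 0.22 to 0.40, and passed at 1 week with the block (adjusted p = 0.0485). The acyl-CoA synthetases ACSL4 and ACSL5 had -0.24 to 0.32 and -0.29 to 1.20, and ACSL5 passed at 2 weeks with the block (adjusted p = 0.0186).

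In glycerolipid assembly, GPAT4, which starts triglyceride synthesis on glycerol phosphate, fell at 2 weeks with a log2FC of -0.60 (SE 0.17, adjusted p = 0.0240), in 5 of 5 rabbits. It did not pass without the repair of rabbit 59 or 62 or the control of rabbit 61 (highest adjusted p 0.0945). Nor did it with all 34 libraries, with quality weights or with the libraries of 2 weeks alone (highest adjusted p 0.272). The phosphatidate phosphatases LPIN1 and LPIN2 ranged from -0.46 to 0.09 and from 0.12 to 1.12, the latter passing at 2 weeks with the block (adjusted p = 0.00993). LIPE, the hormone-sensitive lipase of adipocytes, rose at 1 week by a log2FC of 1.90 (SE 0.57, adjusted p = 0.0287). Its repairs held 30.9, 90.5, 23.8 and 53.5 CPM in rabbits 5 to 8 against 6.56, 15.4, 14.5 and 11.4 CPM. The call was lost without the repair of rabbit 6 or 8 or the control of rabbit 5, 7 or 8 (highest adjusted p 0.0917). It was also lost with all 34 libraries (adjusted p = 0.117). At 4 weeks LIPE had 77.0, 74.2, 137 and 12.6 CPM in rabbits 63, 66, 67 and 68, with rabbit 68 the low library as for SCD (log2FC 2.48, adjusted p = 0.0805, with the block 0.00450). At 2 weeks the log2FC of LIPE was 1.07 (adjusted p = 0.155, with the block 0.0322).

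Of the cholesterol genes, SOAT1, which esterifies cholesterol with the products of SCD among others, rose at 2 weeks by a log2FC of 1.58 (SE 0.47, adjusted p = 0.0286), with a higher repair in rabbits 59, 60, 62 and 64 and 5.05 CPM in both shoulders of rabbit 61. It was lost without the repair of rabbit 59 or 62 or the control of rabbit 59, 60 or 64 (highest adjusted p 0.0830). SOAT1 was also not called with quality weights or with the libraries of 2 weeks alone (highest adjusted p 0.218). At 1 week it was at 1.14 (adjusted p = 0.0508, with the block 0.0261). The synthesis genes HMGCS1, LSS and PMVK ranged from -0.37 to 0.45 over the 4 times, and none passed. With the block, PMVK passed at 1 week as a fall (log2FC -0.38, adjusted p = 0.0410).

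When the effect of repair was compared between 1 and 8 weeks and between 2 and 4 weeks, 0 of the 27 genes were called in each comparison by limma-voom, edgeR or DESeq2, and 1 in each had an unadjusted p under 0.05. Of all 12937 genes, 0% were called in either comparison by limma-voom, as by edgeR, and DESeq2 called 3 and 1 genes, so these counts say nothing about the lipid genes in particular. In the controls, 6 of 27 differed between 1 and 8 weeks and 2 and 4 weeks (22.2%, against 15.5% of all genes tested, with 7.87% higher and 7.58% lower). Among them, ACACA, FADS2, HACD3 and SREBF2 were higher at 1 and 8 weeks, by 0.72, 0.61, 0.45 and 0.36 on the log2 scale, and GPAT4 was lower, with -0.43.

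**Figure D3:**
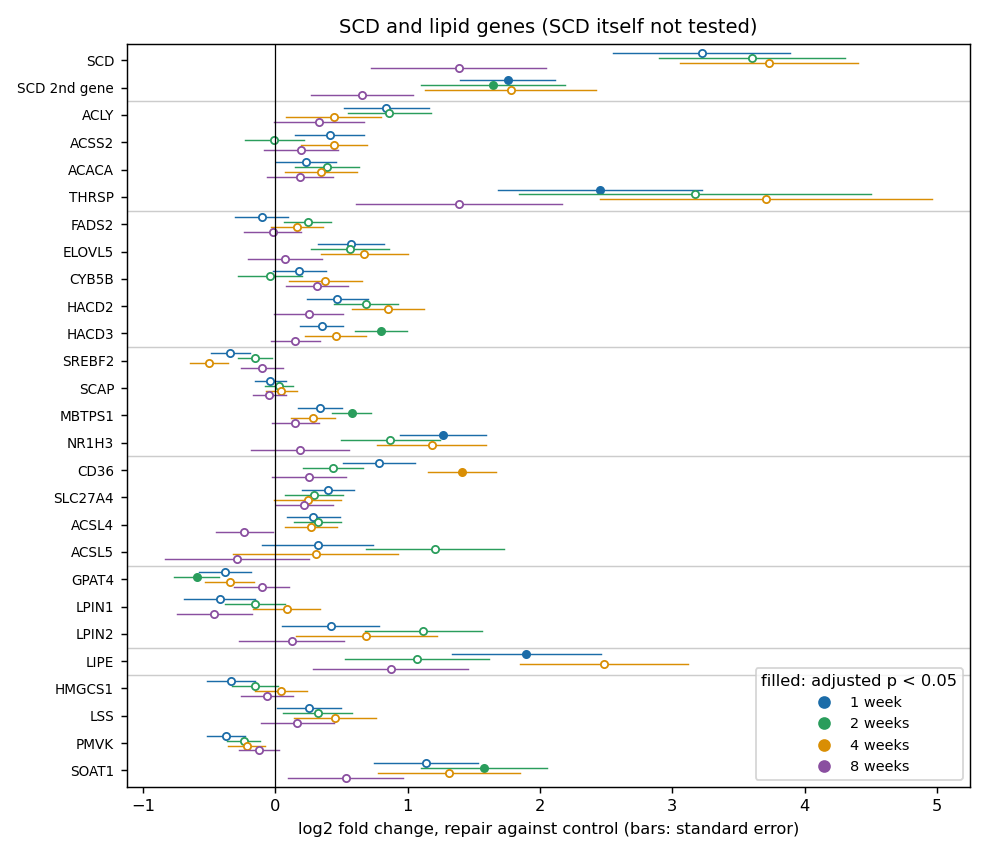
Fitted log2FC of repair against control at 1, 2, 4 and 8 weeks for SCD, the second SCD-annotated gene and the lipid genes named in the text, with bars for the standard error and grey lines between roles. Filled points passed an adjusted p of 0.05, and SCD was not tested. SCD lies at 3.22, 3.60 and 3.73 at the first 3 times, THRSP is nearest to it, and most other lipid genes lie within 1 of 0.

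Genes with a profile like that of SCD were ranked by Pearson r of log2 CPM over the 33 libraries, among 9645 genes, whose median r was -0.06. The r values are descriptions, since libraries share groups, rabbits and series. PCK2, the mitochondrial phosphoenolpyruvate carboxykinase, came first with r = 0.94 (Spearman rho 0.94), and TKT, the transketolase of the pentose phosphate pathway, was eighth with r = 0.91. The other 8 of the first 10 had no symbol among the 3310 at hand, and the tenth had r = 0.91. PCK2 kept r = 0.90 after each group's mean was removed, 0.98 within the series of 1 and 8 weeks, 0.96 within that of 2 and 4 weeks and 0.84 within the 17 controls. On the left-minus-right difference of 16 rabbits it had r = 0.86 and ranked 22, and 1 of the first 10 genes by libraries was among the first 10 by rabbits.

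PCK2 averaged 31.2 ± 19.5 CPM in the repair and 2.91 ± 0.783 CPM in the control at 1 week (SD, n = 4 each). At 4 weeks its repair levels were 45.7, 40.7, 47.7 and 5.09 CPM in rabbits 63, 66, 67 and 68, so rabbit 68 stood apart as it did for SCD. The repair mean was 10.4 ± 7.75 CPM (SD, n = 5) at 2 weeks and 12.1 ± 3.57 CPM (SD, n = 3) at 8 weeks, against 1.67 ± 0.610 CPM (SD, n = 5) and 4.01 ± 1.38 CPM (SD, n = 4) in the controls. TKT averaged 38.4 ± 24.5 CPM in the 1-week repair and 8.84 ± 1.94 CPM in its control (SD, n = 4 each), and had 39.3, 39.7, 68.5 and 10.1 CPM in the 4-week repairs of rabbits 63, 66, 67 and 68.

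Of the 27 lipid genes, THRSP was most like SCD over the 33 libraries, with r = 0.93 (Spearman rho 0.93), and r = 0.76 with group means removed. On the left-minus-right difference of 16 rabbits THRSP had r = 0.73, below NR1H3 (0.76) and HACD2 (0.74). The mean log2 CPM of THRSP, 0.93, lay just under the minimum of 1 set for the ranking, so it has no rank there. Among all 12936 other genes tested THRSP took rank 3 over the libraries. In the 4-week repairs THRSP followed the split by rabbit, with 1.57 CPM in rabbit 68 and 7.87, 7.88 and 22.5 CPM in rabbits 63, 66 and 67. Of the lipid genes above the minimum, NR1H3 had r = 0.81 and rank 59, followed by LIPE (r = 0.80, rank 76) and HACD2 (r = 0.75, rank 151). ADIPOQ, the adipokine adiponectin of adipocytes, had r = 0.79 and rank 81. With group means removed, r was 0.68 for NR1H3, 0.70 for LIPE and 0.28 for ADIPOQ. Within the 17 controls it was 0.39, 0.26 and 0.59 for the same genes. GPAT4 had r = -0.68, and -0.12 with group means removed.

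**Figure D4:**
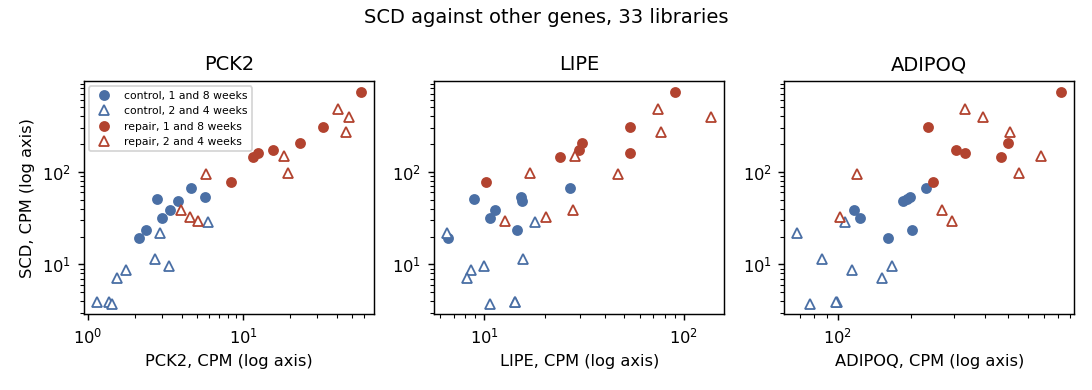
SCD against PCK2, LIPE and ADIPOQ in CPM (log axes), with 1 point for each of 33 libraries, red for repair and blue for control, filled for 1 and 8 weeks and open for 2 and 4 weeks. Over the 33 libraries r is 0.94 for PCK2, 0.80 for LIPE and 0.79 for ADIPOQ. Over the 17 controls alone it is 0.84, 0.26 and 0.59.

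Markers of cell types that could carry SCD moved as well. Of 8 adipocyte markers, 2 were matched to an identifier, ADIPOQ and LIPE, and neither was at 0 in any library. Their summed level was 289 to 915 CPM in the repairs and 127 to 216 CPM in the controls at 1 week, then 122 to 708 against 87.8 to 123 CPM at 2 weeks, 307 to 586 against 74.8 to 176 CPM at 4 weeks and 257 to 385 against 134 to 257 CPM at 8 weeks. The adipocyte sum was well apart at 1 and 4 weeks, touched the controls at 2 weeks and was barely above them at 8 weeks. ADIPOQ rose at 1 week by a log2FC of 1.51 (SE 0.47, adjusted p = 0.0338) and at 2 weeks by 1.43 (SE 0.36, adjusted p = 0.0149), and had 1.68 and 0.69 at 4 and 8 weeks (adjusted p = 0.0784 and 0.999), where 4 weeks passed with the block (adjusted p = 0.0144). The call at 1 week was lost without the repair of rabbit 5, 6 or 7 or the control of rabbit 5, 7 or 8 (highest adjusted p 0.104), and that at 2 weeks without the repair of rabbit 59 or 62 (highest adjusted p 0.0682). All 34 libraries together also lost the call at 1 week (adjusted p = 0.0680), and the libraries of 2 weeks alone that at 2 weeks (adjusted p = 0.173). The part of adipocyte number in the level of SCD was not tested. In the 4-week repair of rabbit 68, with SCD at 29.4 CPM, ADIPOQ was at 294 CPM and LIPE at 12.6 CPM. The 4-week repairs of rabbits 63, 66 and 67, with SCD at 268, 484 and 390 CPM, had 509, 332 and 393 CPM of ADIPOQ and 77.0, 74.2 and 137 CPM of LIPE, so rabbit 68 was the lowest of the 4 in both. The 2 markers differed in rabbit 68, however. Its ADIPOQ was near that of rabbit 66 and above every 4-week control (68.3 to 166 CPM), whereas its LIPE lay among the controls (6.50 to 18.0 CPM).

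Of 3 sebaceous and skin markers, MC5R, a melanocortin receptor, was matched to an identifier, so the list rests on 1 gene and does not identify a tissue. Its level was 5.08 to 8.77 CPM in the repairs and 1.14 to 2.58 CPM in the controls at 1 week, and 1.24 to 12.2 against 0.109 to 0.616 CPM at 2 weeks. At 4 weeks it was 15.7, 13.1, 19.8 and 0.783 CPM in the repairs of rabbits 63, 66, 67 and 68, low in the same rabbit as SCD, and 0.109 to 1.46 CPM in the controls. The repair of rabbit 68 differed in other markers too. Its fibroblast sum was 636 CPM (other repairs of that time 1808 to 3967) and its macrophage sum 2.08 CPM (others 10.5 to 29.8), both the lowest. Its myofibre and endothelial sums, 16809 and 191 CPM, were the highest. At 8 weeks MC5R was at 1.21 to 7.84 against 0.288 to 3.55 CPM. MC5R did not pass at any time (log2FC 2.06, 3.82, 3.49 and 1.31 with adjusted p = 0.0806, 0.0595, 0.189 and 0.999). With the block it rose at 1, 2 and 4 weeks (adjusted p = 0.00295, 0.00272 and 0.00613), and its part in the level of SCD was not tested.

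The myofibre sum of MYOM2 and TNNT3, 2 of 10 markers, was 566 to 10204 CPM in the repairs and 9463.6 to 14747 CPM in the controls at 1 week, where MYOM2, a protein of the sarcomere M-band, fell with a log2FC of -1.67 (SE 0.46, adjusted p = 0.0198). That call was lost without the control of rabbit 5 or the repair of rabbit 6 (highest adjusted p 0.0637) and with the libraries of 1 week alone (adjusted p = 0.0848). TNNT3 was at -1.57 there (adjusted p = 0.0993, with the block 0.0219). The myofibre ranges of repair and control overlapped at all 4 times. The fibroblast and fibro-adipogenic sum (4 of 5 markers) was 3578.9 to 13174 CPM in the repairs against 1042.6 to 1383.5 CPM in the controls at 1 week, 500.5 to 37533 against 593 to 996 CPM at 2 weeks, 636 to 3966.9 against 468 to 924 CPM at 4 weeks and 2012.8 to 2766.7 against 1303.1 to 2686.3 CPM at 8 weeks. The macrophage sum (5 of 9 markers) was 19.5 to 81.7 against 12.6 to 28.9 CPM at 1 week, 5.20 to 391 against 6.22 to 10.7 CPM at 2 weeks, 2.08 to 29.8 against 3.14 to 11.4 CPM at 4 weeks and 28.9 to 65.0 against 18.9 to 43.4 CPM at 8 weeks. The endothelial sum (2 of 4 markers) was 208 to 297 against 156 to 225 CPM at 1 week, 91 to 592 against 108 to 123 CPM at 2 weeks, 145 to 191 against 119 to 187 CPM at 4 weeks and 176 to 189 against 171 to 187 CPM at 8 weeks. Of these genes, PDGFRA, COL1A1 and VWF rose at 2 weeks, by a log2FC of 1.68, 2.80 and 0.84 (adjusted p = 0.0467, 0.0331 and 0.0418), and each lost its call without the repair of rabbit 59 or 62 or the control of rabbit 60, 62 or 64, and PDGFRA and VWF also without the control of rabbit 59 or 61 (highest adjusted p without a library 0.162, 0.177 and 0.177). All 3 calls were also lost with all 34 libraries, with quality weights and with the libraries of 2 weeks alone, and those of PDGFRA and VWF without a filter on low counts (highest adjusted p 0.237, 0.221 and 0.256). With the rabbit block, in which 31.6% of all genes passed at 2 weeks, 4 of the 5 macrophage genes passed there as a rise, CD163, CSF1R, MRC1 and C1QB, with a log2FC of 4.77, 3.20, 2.87 and 1.99 (adjusted p = 0.00173, 0.00349, 0.00439 and 0.0360). Without the block their log2FC was 2.72, 2.08, 1.80 and 2.02 (adjusted p = 0.218, 0.156, 0.194 and 0.169). The macrophage sum of the 2-week repairs was 391 CPM in rabbit 59 and 102 CPM in rabbit 62, and 14.2, 8.38 and 5.20 CPM in rabbits 60, 61 and 64, so the level was high in 2 of 5 libraries. In that fit the endothelial gene CDH5 rose at 2 weeks by 0.47 (adjusted p = 0.0469, without the block 0.0797) and COL1A1 at 1 week by 3.21 (adjusted p = 0.0430, without the block 0.0606). The part of these cell types in the level of SCD was not tested across libraries. At 2 weeks, the fibroblast sums in the repairs of rabbits 59, 60, 61, 62 and 64 were 37533, 719, 1445.3, 10602 and 500.5 CPM, beside SCD levels of 96.2, 93.8, 38.6, 149 and 32.5 CPM.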

How the data were processed

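RNA of 34 libraries was sequenced as single reads from a stranded mRNA kit; the authors aligned them to the rabbit genome with STAR and quantified genes with RSEM and Ensembl annotation, and the deposited values are expected counts per gene, not scaled. All columns of the table were used (0 unused). Here, genes were kept where any of 33 libraries passed a CPM of 1, TMM factors came from edgeR 4.0.16, and limma 3.58.1 in R 4.3.3 ran voom on a design of 8 group means, which follows the study's methods. p-values were Benjamini-Hochberg adjusted over 12937 genes and a gene was called at 0.05. Of the genes in the table, 5791 had no count. The fit was also run on simulated data, and no result of that run is used here. Counts were rounded for edgeR quasi-likelihood and DESeq2 1.42.0. Levels are CPM over TMM-scaled totals, and likeness and spread used log2 CPM with a prior count of 2. The SD of SCD in a single group, as the 1.86 of the 4-week repair, used log2 CPM without a prior count. The r within groups, series and controls, and the r of lipid genes below the minimum level, were added after the data were seen. Figures used matplotlib 3.10.9 in Python 3.11.15.

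The shoulders of a rabbit are paired by animal: the residuals of repair and control of the same rabbit had r of 0.0252 to 0.434 (median 0.257), and in 15 of 16 rabbits no other control was closer. The study's design has no block, so the main fit has none, and the rabbit block is an alternative in which the lone control of rabbit 3 adds nothing to the repair effect. Highest r between 2 libraries was 0.987, so no library was a duplicate.

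Contrasts of SCD between control groups, planned with a test, are given without it, since those levels entered the choice of the gene. SCD, the gene lists and the tests were chosen with earlier results of these data known. Symbols, which are those of human orthologs, were at hand for 3310 identifiers. The text names SCD, other genes with its symbol, lipid genes called at any time (in each role up to 4 with the smallest adjusted p), fixed adipocyte and lipogenic genes with an identifier, the 10 genes most like SCD that have a symbol, and markers. Other lipid genes with an identifier are named beside them, except some that are counted in the list but not reported singly here. PLIN1, CIDEC, LEP, SREBF1, MLXIPL, PPARG, FASN, ELOVL6, FADS1, DGAT2 and INSIG1 were matched to no identifier and are not analysed here. Satellite cell, nerve sheath and tendon marker lists had no member matched to an identifier. The study's own fold changes and traits were not used.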

Additional observations from a re-analysis of the deposited data

Results flagged for a closer look

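Each group of 4 or 5 libraries was searched for a library far from the rest (its gap to the nearest library against the whole range of the group, at Dixon's 95% critical value), for 31 genes and 217 groups of values. Chance flags 5% of groups, or about 10.9 here, and 14 were found. SCD and the second SCD-annotated gene had none.

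The repair of rabbit 6 at 1 week gave 5 of the 14, each the highest of its group. These were ACACA at 50.8 CPM (next library 19.8), NR1H3 at 17.9 CPM (next 9.34), CD36 at 322 CPM (next 181), LSS at 32.5 CPM (next 15.3) and TKT at 74.9 CPM (next 28.5). The same library held the highest SCD, 737 CPM, and the lowest myofibre sum, 566 CPM.

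The repair of rabbit 59 at 2 weeks gave 2, also the highest of their group. ACLY was at 68.6 CPM (next 29.9) and SLC27A4 at 14.7 CPM (next 7.26). SCD in that library, 96.2 CPM, was second to the 149 CPM of rabbit 62.

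The repair of rabbit 68 at 4 weeks was low in PCK2, at 5.09 CPM (next 40.7). The remaining 6 were single libraries. In the controls, CYB5B was high at 6.83 CPM in rabbit 67 (next 4.04), NR1H3 low at 3.35 CPM in rabbit 3 (next 6.17), CD36 low at 73.0 CPM in rabbit 66 (next 137), HMGCS1 low at 20.8 CPM in rabbit 4 (next 26.0) and MC5R high at 2.58 CPM in rabbit 7 (next 1.39). In the repairs, GPAT4 was low at 72.8 CPM in rabbit 7 at 1 week (next 86.7).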

How the results depend on the processing

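The log2FC of SCD moved by less than the spread between rabbits in 11 of 11 alternatives at each time, within 3.09 to 3.61 at 1 week, 3.04 to 3.68 at 2, 3.71 to 4.70 at 4 and 1.38 to 1.60 at 8 weeks. The rabbit block gave 3.20, 3.65, 3.97 and 1.41. Leaving out a replicate gave 2.79 to 3.53, 3.34 to 3.88, 3.30 to 4.66 and 1.17 to 1.78. The log2FC of SCD between the control series, given without a test, was 1.96 to 2.17 over 8 alternatives and 1.91 to 2.25 without a control library. Within series, leaving out a control gave -0.92 to -0.46 for 1 against 8 weeks and -1.67 to -0.997 for 2 against 4 weeks.

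The second SCD-annotated gene ranged from 1.48 to 1.97, 1.37 to 1.96, 1.39 to 2.03 and 0.38 to 0.82 without a replicate. It was no longer called with all 34 libraries at 1 week (1.75, adjusted p 0.0505) and 2 weeks (1.58, 0.109), and at 2 weeks with quality weights (1.09, 0.151) or the libraries of 2 weeks alone (1.64, 0.191). At 4 weeks it was called by edgeR (1.66) and DESeq2 (1.65). The block changed none of its calls.

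Counts of called genes moved most, and the cause was not tested. Lipid genes called at 1, 2 and 4 weeks were 0, 1 and 0 with all 34 libraries, 9, 13 and 4 with the block, 7, 7 and 3 with an estimated rabbit correlation (0.174, chosen after seeing the data), 6, 13 and 6 with DESeq2, and 7, 0 and 0 with a time point alone. They were 12 and 4 at 2 and 4 weeks with edgeR, 10 and 6 at 1 and 4 weeks with quality weights, and 5 at 1 week with the filter in at least 5 libraries. All genes called were 294, 412 and 5 with all libraries, 3406, 4088 and 364 with the block, 2892, 3257 and 189 with the correlation, and 2952, 5 and 0 with a time point alone. They were 4179, 816, 1032 and 84 at 1, 2, 4 and 8 weeks with quality weights, and 2238, 4033, 675 and 5 with DESeq2. With edgeR they were 3716 and 326 at 2 and 4 weeks. They were 51 and 3 at 4 and 8 weeks without a filter. The filter in 5 libraries gave 1768 and 0 at 1 and 8 weeks. The main counts were 1771, 2053, 16 and 1. Without a replicate, lipid calls were 0 to 4, 0 to 11, 0 to 5 and 0 to 0, and all calls 593 to 1763, 328 to 3456, 2 to 281 and 0 to 4. Of all calls, the lowest at 1, 2 and 4 weeks were without the control of rabbit 7 and the repairs of rabbits 59 and 67, the highest at 2 and 4 weeks without the repairs of rabbits 64 and 68. Of the differences in effect between 1 and 8 or 2 and 4 weeks, 0 lipid genes were called in any alternative, where 0 to 5 of all genes were, and 0 to 1 of all genes with a library left out. Of the named calls of single genes, those of LIPE, THRSP, NR1H3 and ADIPOQ at 1 week, GPAT4, HACD3 and MBTPS1 at 2 weeks and CD36 at 4 weeks were lost with all 34 libraries, those of THRSP at 1 week, CD36 at 4 weeks and GPAT4, HACD3, SOAT1, MBTPS1 and ADIPOQ at 2 weeks with the time point alone, and those of GPAT4 and SOAT1 with quality weights (highest adjusted p 0.272, GPAT4).

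Groups of 3 to 5 rabbits limit precision, and the left-out library makes 8 weeks the smallest. Low counts limit the controls of 2 weeks, where SCD had 34.7 to 110 counts.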

Other observations

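The repair library of rabbit 3 at 8 weeks, which entered no comparison, had 8756033 counts. SCD was at 64.3 CPM of the total count there, against 45.5 CPM in the control of the same rabbit and 68.3, 167 and 177 CPM in the repairs of rabbits 1, 2 and 4 on the same scale. The second SCD-annotated gene was at 0.431 CPM (3.77 expected counts), against 6.97 CPM in the control, and had 0.670 counts per 100 counts on SCD. In the other libraries of 8 weeks that figure was 6.47 to 22.2.

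Ranked by the left-minus-right difference over 16 rabbits, the genes with a symbol most like SCD were FAM149A (r = 0.92) and DPT (r = 0.90), the latter encoding dermatopontin, a protein of the extracellular matrix. Over the 33 libraries they ranked 31 and 34 (r = 0.85 and 0.84). ADIPOQ ranked 81 on both measures.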
